A study of Arabidopsis thaliana with 12 samples.

Results

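The ABF genes of Arabidopsis thaliana, ABF1, ABF2, ABF3 and ABF4, encode transcription factors that act in the response to the drought hormone abscisic acid (ABA), and the comparison described here is the difference between the ABA response of leaves that carry mutations in all 4 genes and that of wild-type leaves. It used 8 of the 12 libraries of the series, all from whole leaves of the Col-0 strain, with 2 biological replicates in each of 4 groups: wild-type (WT) leaves and abf1/2/3/4 leaves, each sprayed with 50 µM ABA or with the ethanol vehicle as control. Plants were 5 to 6 weeks old, were grown at 22 °C with 12 h of light a day, and RNA was read 4 h after ABA. All 8 libraries shared background, organ and light regime and differed by label only in genotype and spray. The labels name the mutant by its genes alone and give neither the alleles nor how many lines were used. The other 4 libraries, from wild-type guard cell preparations, entered the fit only to estimate the spread between replicates.

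When ABA binds receptors of the PYR/PYL family, the receptors hold the clade A protein phosphatases 2C (PP2C) inactive, which frees SnRK2 kinases to phosphorylate their targets. ABF proteins are basic leucine zipper factors, are phosphorylated by these kinases, and bind DNA at the ABA-responsive element, whose core is ACGTG. In leaves the pathway is known for closing stomata, for making protective proteins and solutes, and for slowing growth.

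The measure is the genotype interaction: the log2 fold change with ABA in mutant leaves minus the log2 fold change with ABA in wild-type leaves. A negative value means that a gene rose less or fell more in the mutant, and a positive value that it fell less or rose more. Each gene was tested with edgeR's quasi-likelihood test, and was called at a Benjamini-Hochberg adjusted p under 0.05 over all 22341 loci that passed a low-count filter. Levels are normalised read counts (cpm), scaled to the effective library total, and are given for replicate 1 and then replicate 2 of a group. With 2 replicates a group, standard errors (SE) rest on a spread that the fit shares between genes.

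Leaf library totals ran from 25852946 to 47116819 counts. Mutant control replicates differed most, with 355 of 16959 well-read genes over 2-fold apart, against 78 in wild-type control, 87 in wild-type ABA and 42 in mutant ABA leaves. Cell type markers were read in every leaf group, and none of the 26 marker genes tested was at 0 in a leaf library. Interactions were called positive for 4 of 6 mesophyll and 4 of 7 guard cell markers. They were called negative for 4 and positive for 1 of 6 epidermis markers, and negative for 1 and positive for 2 of 7 vasculature markers. Of all tested genes 20.1% were called positive and 15.1% negative. The summed mesophyll level ran from 46658 to 49742 cpm in wild-type control, 33389 to 39081 cpm in wild-type ABA, 36833 to 39609 cpm in mutant control and 36253 to 41408 cpm in mutant ABA leaves, and that of the guard cell markers from 2675 to 3447 cpm in wild-type control, 1996 to 2596 cpm in wild-type ABA, 3058 to 3376 cpm in mutant control and 3133 to 3545 cpm in mutant ABA leaves. The summed epidermis level ran from 761 to 771 cpm in wild-type control, 2156 to 2304 cpm in wild-type ABA, 669 to 753 cpm in mutant control and 1032 to 1213 cpm in mutant ABA leaves, and the summed vasculature level from 1457 to 1476 cpm in wild-type control, 1561 to 1571 cpm in wild-type ABA, 1001 to 1022 cpm in mutant control and 1021 to 1089 cpm in mutant ABA leaves. The part of these markers in the results was not tested.

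Interactions were called for 7850 of 22341 genes, or 35.1% of those tested. They were positive for 4484 genes, 20.1%, and negative for 3366, 15.1%, and 3244 of the 7850 had an absolute interaction of at least 1. The median interaction over all tested genes was 0.06. Positive calls made up 57.1% of calls with trimmed-mean scaling and 49.0% with relative log expression scaling, so which direction held more genes depends on the scaling. ABA raised 6136 genes (27.5%) and lowered 7520 (33.7%) in wild-type leaves, and raised 4223 (18.9%) and lowered 3456 (15.5%) in mutant leaves. Without ABA, 2702 genes (12.1%) were higher and 3228 (14.4%) lower in the mutant. Among the 3366 negative interactions, 1615 genes rose in wild-type leaves and were not called in the mutant, and 1313 rose in both genotypes. Of the 4484 positive interactions, 2664 genes fell in wild-type leaves and were not called in the mutant, 840 fell in both, and 426 fell in wild-type and rose in mutant leaves. A gene that was not called in the mutant may still have changed there by less than the test could show. These classes share libraries with the interaction itself and are a description.

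**Figure D1:**
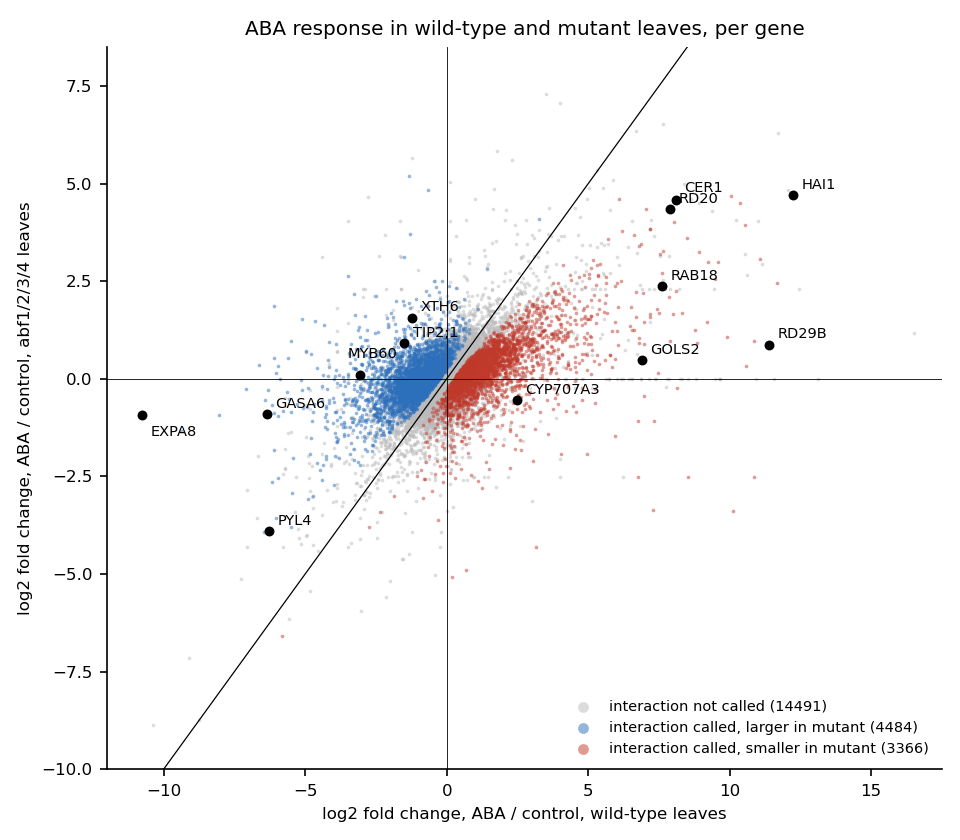
Log2 fold change with ABA in wild-type leaves (x axis) and in abf1/2/3/4 leaves (y axis) for each tested gene, with n = 2 libraries a group. Red marks the 3366 genes with a called negative interaction, blue the 4484 with a called positive one, grey the genes not called, and the diagonal equal responses. The red genes lie right of the diagonal and the blue genes left of it, and RD29B sits at 11.40 in wild-type and 0.87 in mutant leaves.

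Reads of the mutated genes were counted first, since they check the labels. ABF3 had 19.9 and 16.7 cpm in wild-type control leaves, 546 and 549 cpm in wild-type ABA leaves, 2.86 and 2.39 cpm in mutant control leaves and 13.3 and 13.5 cpm in mutant ABA leaves. Its interaction was -2.55 ± 0.16 (SE; adjusted p = 1.6e-06, edgeR). ABF4 was read at 30.5 and 31.9 cpm in wild-type control leaves and at 2.51 and 2.27 cpm in mutant control leaves, a log2 difference of -3.70 at control. The control difference was -1.13 for ABF2 and -0.84 for ABF1, so all 4 transcripts were lower in the mutant before ABA and none was absent. ABF1 still reached 48.2 and 47.3 cpm in mutant leaves with ABA, against 124 and 137 cpm in wild type. Counts over whole genes do not show whether the reads left in the mutant come from intact transcripts. About 29% of the exon bases of ABF4 lie in another annotated locus, and whether the counting used strand is not given in the sources used here.

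Genes for late embryogenesis abundant (LEA) proteins and dehydrins, which protect other proteins and membranes when cells lose water, showed one of the most negative medians among the 34 functional lists. Of 23 tested members 16 had a negative interaction and none a positive one, against 15.1% and 20.1% of all genes. Their median log2 response was 5.96 in wild type and 1.64 in the mutant, with a median interaction of -4.38. Where group levels of 3 counts or fewer were set to 3 counts, which touched 9 members, that median was -3.19, against -3.33 for the AFP and -3.25 for the PP2C genes. RD29B, a hydrophilic protein gene widely used as an ABA reporter, had 0.306 and 0.322 cpm in wild-type control leaves, 861 and 853 cpm in wild-type ABA leaves, 0.279 and 0.410 cpm in mutant control leaves and 0.574 and 0.720 cpm in mutant ABA leaves. The interaction of RD29B was -10.52 ± 0.69 (SE; adjusted p = 2.2e-06, edgeR), and every mutant library stayed under 1 cpm. RAB18, a dehydrin, had 8.67 and 6.16 cpm in wild-type control leaves, 1449.7 and 1433 cpm in wild-type ABA leaves, 7.70 and 8.61 cpm in mutant control leaves and 41.6 and 43.4 cpm in mutant ABA leaves. Induction remained in the mutant, at a log2 change of 2.38 against 7.61 in wild type, with an interaction of -5.23 ± 0.20 (SE; adjusted p = 2.0e-07, edgeR).

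RD29A, which sits beside RD29B in the genome and also answers cold and salt, had a log2 response of 2.21 in mutant leaves against 4.31 in wild type. It was read at 517 and 438 cpm in wild-type control and 9406 and 9589.9 cpm in wild-type ABA leaves, and at 878 and 667 cpm and 3306 and 3829 cpm in the mutant. The interaction was -2.11 ± 0.20 (SE; adjusted p = 2.5e-05, edgeR). The cold-linked members KIN1, KIN2, COR15A, COR15B, COR47, ERD10 and ERD14 rose in both genotypes, with interactions from -4.38 for KIN1 to -1.58 for COR47. SAG21 was the member that fell in mutant leaves, by 1.68 in log2, while its wild-type change of 0.67 was not called. LEA4-5 was read at 212 and 238 cpm in wild-type ABA leaves and at up to 0.359 cpm elsewhere in leaves. HIRD11, a dehydrin with high control levels, changed by 0.66 and 0.67 in wild-type and mutant leaves, and its interaction of 0.01 was not called (edgeR, adjusted p = 0.971).

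The bases before RD29B and LEA7 are shown because RD29B has the most negative called interaction of the list, and LEA7 the highest level among genes read in wild-type ABA leaves alone, which are described next. Each line gives the 250 bases upstream of the annotated gene start in RefSeq's TAIR10.1 assembly, 5′ to 3′ on the gene's strand, with ACGTG on either strand in capitals, at chr5:21236771-21237020 (plus strand) and chr1:19619474-19619723 (plus strand).
RD29B: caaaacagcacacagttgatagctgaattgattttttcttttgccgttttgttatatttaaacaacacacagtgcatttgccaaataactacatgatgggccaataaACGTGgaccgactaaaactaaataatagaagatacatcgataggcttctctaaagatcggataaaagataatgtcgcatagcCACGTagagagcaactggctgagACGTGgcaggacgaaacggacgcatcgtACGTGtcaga
LEA7: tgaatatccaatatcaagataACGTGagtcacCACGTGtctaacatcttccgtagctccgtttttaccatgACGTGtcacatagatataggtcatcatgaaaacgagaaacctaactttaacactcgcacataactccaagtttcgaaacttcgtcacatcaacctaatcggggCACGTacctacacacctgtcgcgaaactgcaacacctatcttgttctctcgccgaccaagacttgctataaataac
Both hold 4 ACGTG cores, and 17 of the 23 tested members of the list held at least 1, against 23.5% of all tested genes with an upstream window.

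A few genes were read in wild-type ABA leaves alone, a pattern looked for after the values were seen. In 10 tested genes the wild-type ABA mean was at least 5 cpm while both libraries of each of the other 3 groups held at most 3 counts. LEA7 led them, at 369 and 346 cpm in wild-type ABA leaves, which is at least 4541-fold above the level that 3 counts give in wild-type control leaves and at least 3730-fold above that level in mutant leaves with ABA. edgeR's interaction was called for 3 of the 10, and was -15.34 for LEA7 (edgeR, adjusted p = 0.055). DESeq2 called the interaction of all 10, and edgeR called all 10 lower in the mutant when both genotypes had ABA. The genes were picked by these same levels, so such calls follow from the choice and are no separate evidence. The other 9 were TSPO (an ABA-induced membrane protein of the secretory pathway), SAG29 (the sugar transporter also named SWEET15), LEA18, ECP63, HSFA6A (a heat shock factor) and the loci AT3G17520, AT2G42560, AT5G45690 and AT5G40790. AT3G15670 fell just outside this group, with 7.62 and 6.64 cpm in wild-type ABA leaves and 0.0957 and 0.0400 cpm in mutant ABA leaves. TSPO was at least 1192-fold and SAG29 at least 420-fold above the wild-type control floor. At least 1 ACGTG core stood before 7 of the 10, against 23.5% of all tested genes with an upstream window. Among genes that rose in wild-type leaves the share was 31.0% without a called interaction and 34.8% with a negative one.

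Negative regulators of ABA signalling, which ABA induces, lost most of their induction. In the clade A PP2C list 7 of 8 tested members had a negative interaction, against 15.1% of all genes. The median response of the list was 4.89 in wild type and 1.48 in the mutant. HAI1 had 0.250 and 0.0495 cpm in wild-type control leaves, 700.1 and 723 cpm in wild-type ABA leaves, 0.0697 and 0.186 cpm in mutant control leaves and 3.99 and 2.56 cpm in mutant ABA leaves, with an interaction of -7.53 ± 1.24 (SE; adjusted p = 8.2e-04, edgeR). HAI2 was read at 1.06 and 0.421 cpm in wild-type control and 261 and 265 cpm in wild-type ABA leaves, and at 0.906 and 0.634 cpm and 10.1 and 8.48 cpm in the mutant. All 7 called phosphatases still rose in the mutant, where ABI1, ABI2, PP2CA and HAB1 gained 1.15, 1.42, 1.53 and 1.75 on the log2 scale. HAI3, the member without a call, stayed under 1 cpm in every leaf library. The AFP genes, whose products bind ABA transcription factors and repress them, had negative interactions in 4 of 4 members. AFP1 reached 257 and 274 cpm in wild-type and 4.09 and 5.24 cpm in mutant leaves with ABA, and AFP2 rose by 2.81 in wild type against a change of -0.02 in the mutant that was not called. AFP4 went from 1.81 and 1.36 to 19.3 and 21.4 cpm in wild type and was at 1.96 and 1.16 cpm in mutant ABA leaves.

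The window before HAI2 is shown as an example from the phosphatases, at chr1:2282829-2283078 (minus strand), with capitals as above.
HAI2: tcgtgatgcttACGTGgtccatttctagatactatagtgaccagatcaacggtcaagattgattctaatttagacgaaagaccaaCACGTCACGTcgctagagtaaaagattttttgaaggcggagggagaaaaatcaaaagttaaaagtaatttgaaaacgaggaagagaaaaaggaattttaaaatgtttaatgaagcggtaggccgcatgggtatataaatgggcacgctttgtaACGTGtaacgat
It holds 4 cores, of which a pair adjoin in the capital run. Of the 8 tested phosphatases, 5 held at least 1 core, against 23.5% of all tested genes with an upstream window.

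Receptors moved the other way. ABA lowered 7 of 9 tested PYR/PYL genes in wild-type leaves, against 33.7% of all genes. Interactions were positive for 5 of 9 and negative for none, against 20.1% and 15.1% of all genes. The positive count was 3 without wild-type ABA replicate 2, without wild-type control replicate 2 or with the 8 leaf libraries alone. PYL4 had 90.3 and 83.7 cpm in wild-type control leaves, 1.32 and 0.973 cpm in wild-type ABA leaves, 66.1 and 93.6 cpm in mutant control leaves and 4.83 and 5.92 cpm in mutant ABA leaves. It fell in both genotypes, with an interaction of 2.37 ± 0.29 (SE; adjusted p = 1.1e-04, edgeR). PYL8 fell by 1.88 in wild type and by 0.32 in the mutant, and PYR1 by 1.90 and 0.59. PYL5 went from 24.1 and 23.3 to 0.641 and 1.29 cpm in wild type and from 12.5 and 18 to 0.670 and 0.760 cpm in the mutant, and its interaction of 0.12 was not called (edgeR, adjusted p = 0.857). PYL6 went from 14.7 and 13.5 cpm to at most 2 reads in wild type and from 6.17 and 10 cpm to at most 1 read in the mutant, so both groups with ABA lay under 3 counts and the size of the falls cannot be compared. PYL2 was called but read under 3 cpm throughout, and lost its call under 4 of 16 alternative settings.

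SnRK2 kinase genes had 3 negative and 2 positive interactions among 10, where 15.1% and 20.1% of all genes had them. OST1, the kinase that acts in guard cells, rose by 1.37 in wild type and 0.47 in the mutant, with an interaction of -0.90 ± 0.11 (SE; adjusted p = 9.9e-05, edgeR). SNRK2.7 rose from 0.667 and 0.866 to 7.98 and 8.29 cpm in wild type and was at 1.55 and 1.36 cpm in mutant leaves with ABA. SNRK2.8 and SNRK2.10 were the positive members, at 1.23 and 0.35, and SNRK2.10 lost its call under 6 of 16 alternative settings. SNRK2.2 and SNRK2.3, the other main ABA-activated kinases, had interactions of -0.13 and 0.31 that were not called.

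Genes that make and break down ABA were induced less in the mutant in 7 of 11 cases, where 15.1% of all genes had a negative interaction. The breakdown enzymes CYP707A1, CYP707A2 and CYP707A3, which hydroxylate ABA, stood out. CYP707A1 had 2.78 and 2.87 cpm in wild-type control leaves, 55.9 and 68.3 cpm in wild-type ABA leaves, 3.52 and 3.39 cpm in mutant control leaves and 6.75 and 5.44 cpm in mutant ABA leaves, with an interaction of -3.62 ± 0.21 (SE; adjusted p = 9.7e-07, edgeR). CYP707A3 rose by 2.48 in wild type and fell by 0.54 in the mutant. CYP707A4 rose in both, and its interaction of -0.65 was not called. On the synthesis side NCED3, the rate-limiting dioxygenase, went from 9.39 and 11.1 to 35.0 and 53.4 cpm in wild type and from 11.5 and 18.8 to 28.2 and 24 cpm in the mutant, an interaction of -1.32 ± 0.33 (SE; adjusted p = 0.01, edgeR). AAO3, ABA1 and ABA3 also had negative interactions, of -1.22, -0.72 and -0.86. ABA2 was the member with a positive one, 1.19, and 40% of its exon bases overlap another locus.

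**Figure D2:**
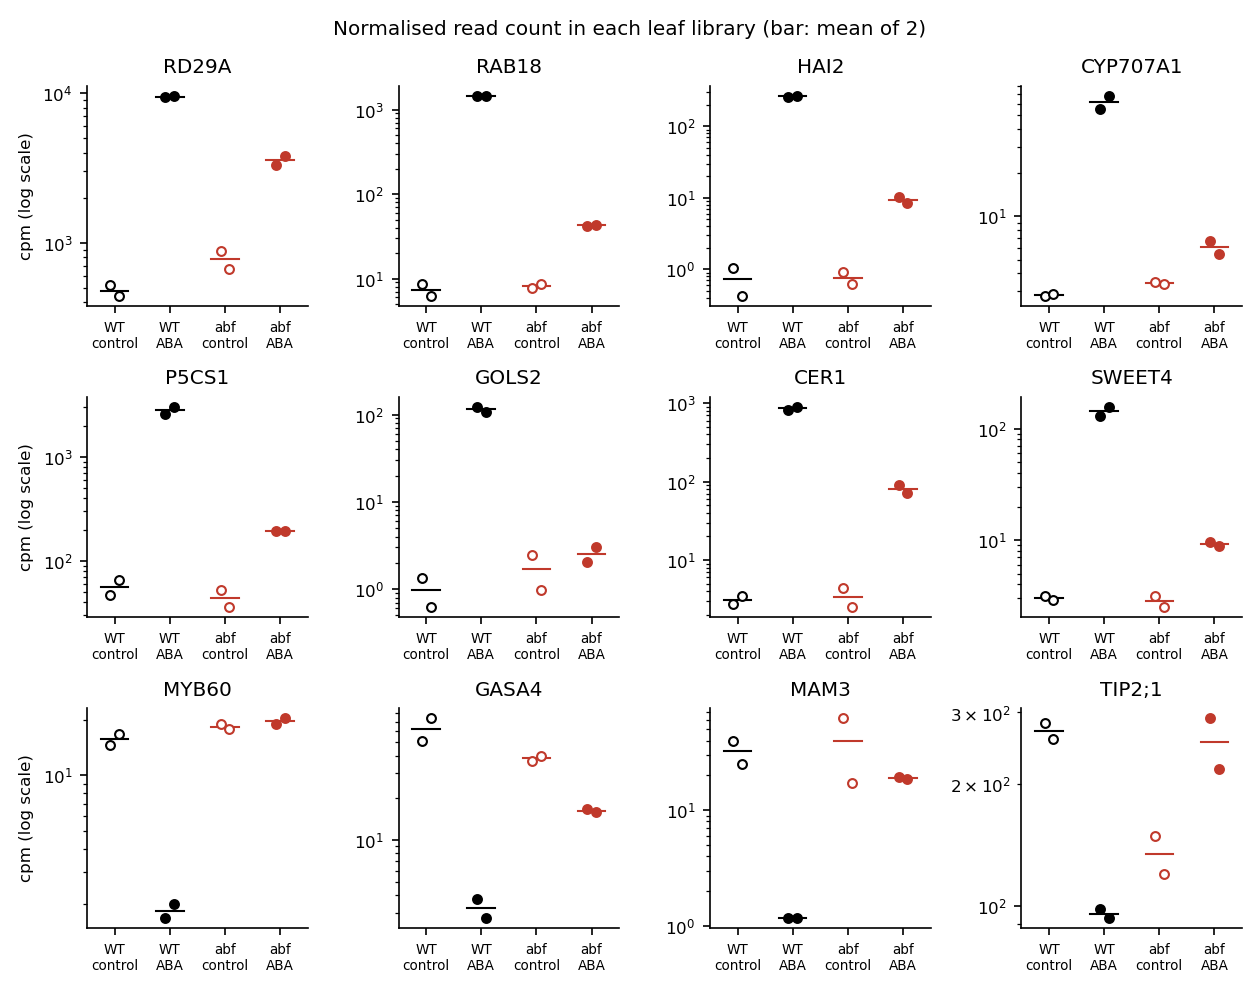
Normalised read count in cpm (log y axis, range set per panel) for 12 genes in the 8 leaf libraries, with open points for control, filled points for ABA, black for wild type, red for abf1/2/3/4, and a bar at the mean of n = 2. In RD29A, RAB18, HAI2, CYP707A1, P5CS1, GOLS2, CER1 and SWEET4 the wild-type ABA libraries lie above every other library, and in MYB60, GASA4, MAM3 and TIP2;1 they lie below every other library.

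Stress NAC factors had negative interactions in 7 of 10 members and none positive, against 15.1% and 20.1% of all genes. Their median response was 1.92 in wild type and 0.64 in the mutant. The median interaction of -1.35 was -1.67 without mutant control replicate 1 and -1.07 without mutant control replicate 2. RD26, which promotes stress and senescence programmes, had 7.86 and 6.36 cpm in wild-type control leaves, 413 and 468 cpm in wild-type ABA leaves, 15.9 and 18.3 cpm in mutant control leaves and 79.4 and 96.9 cpm in mutant ABA leaves, with an interaction of -3.59 ± 0.18 (SE; adjusted p = 5.6e-07, edgeR). NAC019 rose by 6.81 and 3.41 in wild type and mutant. In the homeodomain-leucine zipper I family 5 of 7 were negative and 2 positive, against 15.1% and 20.1% of all genes. HB-7, a growth-restraining factor of drought, rose from 3.86 and 3.76 to 350.2 and 389 cpm in wild type and reached 9.33 and 13.5 cpm in the mutant, an interaction of -5.36 ± 0.26 (SE; adjusted p = 4.1e-07, edgeR). Its close relative HB-12 had -3.90. HB5 and ATHB13 were the positive members, HB5 at 0.85. ATHB13 fell by 1.27 in wild type and rose by 1.12 in the mutant. NF-YA genes, which encode the DNA-binding subunit of a CCAAT-box complex, had 6 of 10 negative, against 15.1% of all genes. Their median response was 1.14 in wild type and -0.02 in the mutant. NF-YA5 and NF-YA7 had the most negative interactions, -2.18 and -1.99, and 32% of the exon bases of NF-YA5 overlap another locus. NF-YA4 went from 15.6 and 14.5 to 63.9 and 60.2 cpm in wild type and stayed between 14.2 and 20.8 cpm in the 4 mutant libraries. Heat shock factors were negative in 4 of 18 members, against 15.1% of all genes. HSFC1 was among them at -2.61, but 97% of its exon bases overlap another locus.

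Of the genes for protective solutes, 3 of 9 in the proline list and 3 of 7 in the galactinol and raffinose list had a negative interaction, against 15.1% of all genes. P5CS1, the enzyme that sets the rate of proline synthesis, had 46.9 and 65.9 cpm in wild-type control leaves, 2585 and 3019.5 cpm in wild-type ABA leaves, 53.0 and 35.8 cpm in mutant control leaves and 196 and 194 cpm in mutant ABA leaves, with an interaction of -3.50 ± 0.26 (SE; adjusted p = 5.8e-06, edgeR). Its paralog P5CS2 had -1.50, and the other 7 members of the proline list held 1 further negative interaction, of -0.39 for P5CDH. GOLS2, which makes the galactinol used for raffinose, rose from 1.33 and 0.619 to 122 and 107 cpm in wild type and was at 2.03 and 3.00 cpm in mutant leaves with ABA, an interaction of -6.41 ± 0.54 (SE; adjusted p = 1.1e-05, edgeR). The raffinose synthase RS5 rose by 1.49 in wild type and fell by 0.41 in the mutant. SIP2 had -2.08, and DIN10, a dark-induced member of the list, was the positive one at 1.62. GOLS1 and GOLS3 rose in both genotypes without a called interaction. The median of this list, -0.46, was 0.07 without mutant control replicate 1 and -1.13 without replicate 2, where 5 of the 7 were negative. The membrane trafficking genes of the HVA22 family had 3 of 5 negative and 1 positive, against 15.1% and 20.1% of all genes. HVA22D, induced by ABA, reached 159 and 148 cpm in wild-type and 48.7 and 50.7 cpm in mutant ABA leaves, an interaction of -1.93. HVA22B was read at 3.81 and 3.55 cpm in wild-type ABA leaves and at no more than 0.167 cpm in any other leaf library, and HVA22C had 0.76. RD20, a caleosin of lipid bodies, went from 10.9 and 9.53 to 2294 and 2518 cpm and from 15.3 and 5.70 to 196 and 233 cpm, an interaction of -3.54 ± 0.43 (SE; adjusted p = 1.1e-04, edgeR).

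Starch breakdown genes did not share a direction, with 4 negative and 6 positive interactions among 16. As shares these were 25% and 37.5%, against 15.1% and 20.1% of all genes. BAM1, a beta-amylase that degrades starch under stress and in guard cells, had 46.9 and 42.8 cpm in wild-type control leaves, 310.2 and 328 cpm in wild-type ABA leaves, 51.6 and 44.8 cpm in mutant control leaves and 81.7 and 102 cpm in mutant ABA leaves, with an interaction of -1.91 ± 0.16 (SE; adjusted p = 1.3e-05, edgeR). AMY1, MEX1 and SEX1 were also negative. On the positive side BAM5 fell in neither genotype by the test and rose in the mutant by 2.03, and DPE2, SEX4, BAM3 and AMY3 rose in the mutant by 0.88, 0.64, 1.03 and 0.44 while their wild-type changes were not called. DPE1 fell by 0.80 in wild type and rose by 0.30 in the mutant. In all, 12 of the 16 rose in mutant leaves and 6 in wild-type leaves, against 18.9% and 27.5% of all genes.

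Sugar transporters had 8 negative and 3 positive interactions among 25, or 32.0% and 12.0%, against 15.1% and 20.1% of all genes. The positive count was 5 without either mutant control replicate. SWEET4, a plasma membrane sugar carrier, had 3.14 and 2.9 cpm in wild-type control leaves, 129 and 156 cpm in wild-type ABA leaves, 3.17 and 2.5 cpm in mutant control leaves and 9.62 and 8.88 cpm in mutant ABA leaves, and its interaction was -3.86 ± 0.22 (SE; adjusted p = 9.2e-07, edgeR). STP13, a hexose importer, rose by 1.52 in wild type, and its mutant change of -0.15 was not called. The phloem loading genes SWEET11, SWEET12 and SUC2 had interactions of -0.13, 0.08 and 0.01, none called. SUC1 was lowered in wild type by 2.75 and had the most positive interaction, 2.18 ± 0.21 (SE; adjusted p = 2.2e-05, edgeR). The window before SWEET4 is shown, at chr3:10409978-10410227 (minus strand), because it holds 4 cores beside one another and farther apart.
SWEET4: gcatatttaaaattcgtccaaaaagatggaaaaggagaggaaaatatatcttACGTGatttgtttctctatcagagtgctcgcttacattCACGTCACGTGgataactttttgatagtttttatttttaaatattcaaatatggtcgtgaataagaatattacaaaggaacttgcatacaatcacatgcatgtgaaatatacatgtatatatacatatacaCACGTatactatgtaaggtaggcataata

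Wax genes had a negative interaction in 14 of 15 tested members and a positive one in none, against 15.1% and 20.1% of all genes. Their median log2 response was 2.07 in wild-type and 0.93 in mutant leaves, and 12 of the 14 still rose in the mutant. CER1, which makes the alkanes of the leaf surface, had 2.75 and 3.46 cpm in wild-type control leaves, 822 and 896 cpm in wild-type ABA leaves, 4.35 and 2.5 cpm in mutant control leaves and 91.9 and 71.5 cpm in mutant ABA leaves, with an interaction of -3.54 ± 0.30 (SE; adjusted p = 1.0e-05, edgeR). KCS2 and KCS6, condensing enzymes of fatty acid elongation, had -2.70 and -1.07, though 64% of the exon bases of KCS2 overlap another locus. MYB96, the factor that activates wax genes in drought, rose from 19.8 and 17.9 to 150.4 and 192 cpm in wild type and from 25.2 and 27.5 to 42.1 and 51.3 cpm in the mutant. WSD1, a wax ester synthase, reached 12.3 and 16.4 cpm in wild-type and 3.28 and 2.76 cpm in mutant ABA leaves, an interaction of -2.92 whose call was lost without mutant control replicate 1. The exporters ABCG11 and ABCG12 had -0.92 and -1.03. CER4 rose by 2.69 and 2.59 and was the member without a call. Lipid transfer proteins were negative in 2 of 5, with a count of 1 without wild-type control replicate 2, mutant ABA replicate 2 or mutant control replicate 1, and of 4 under DESeq2. LTP1 had -0.80, which was -0.47 without mutant control replicate 1, and the call of LTP3 was lost under 6 of 16 alternative settings.

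Chlorophyll breakdown and senescence genes had 8 of 14 negative and none positive (1 without mutant control replicate 2), with medians of 2.00 in wild type and 0.64 in the mutant. Among all genes 15.1% were negative and 20.1% positive. SAG29 led the list by size and is described above. NAP, a senescence NAC factor, had 2.33 and 2.25 cpm in wild-type control leaves, 49.9 and 76.8 cpm in wild-type ABA leaves, 3.14 and 5.33 cpm in mutant control leaves and 12.0 and 9.80 cpm in mutant ABA leaves, an interaction of -3.41 ± 0.41 (SE; adjusted p = 1.0e-04, edgeR). NYE1 and NYE2, which remove magnesium from chlorophyll, went to 52.3 and 67.9 and 4.81 and 8.07 cpm in wild-type ABA leaves against 19.7 and 18.9 and 1.24 and 1.40 cpm in the mutant. The NAC factor gene NAC6 had -3.46. PPH and PAO, the next steps of the pathway, had interactions of -1.11 and -1.59. NYC1, NOL and ACD2 rose in wild type by 1.09, 0.63 and 0.48 and their interactions were not called.

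**Figure D3:**
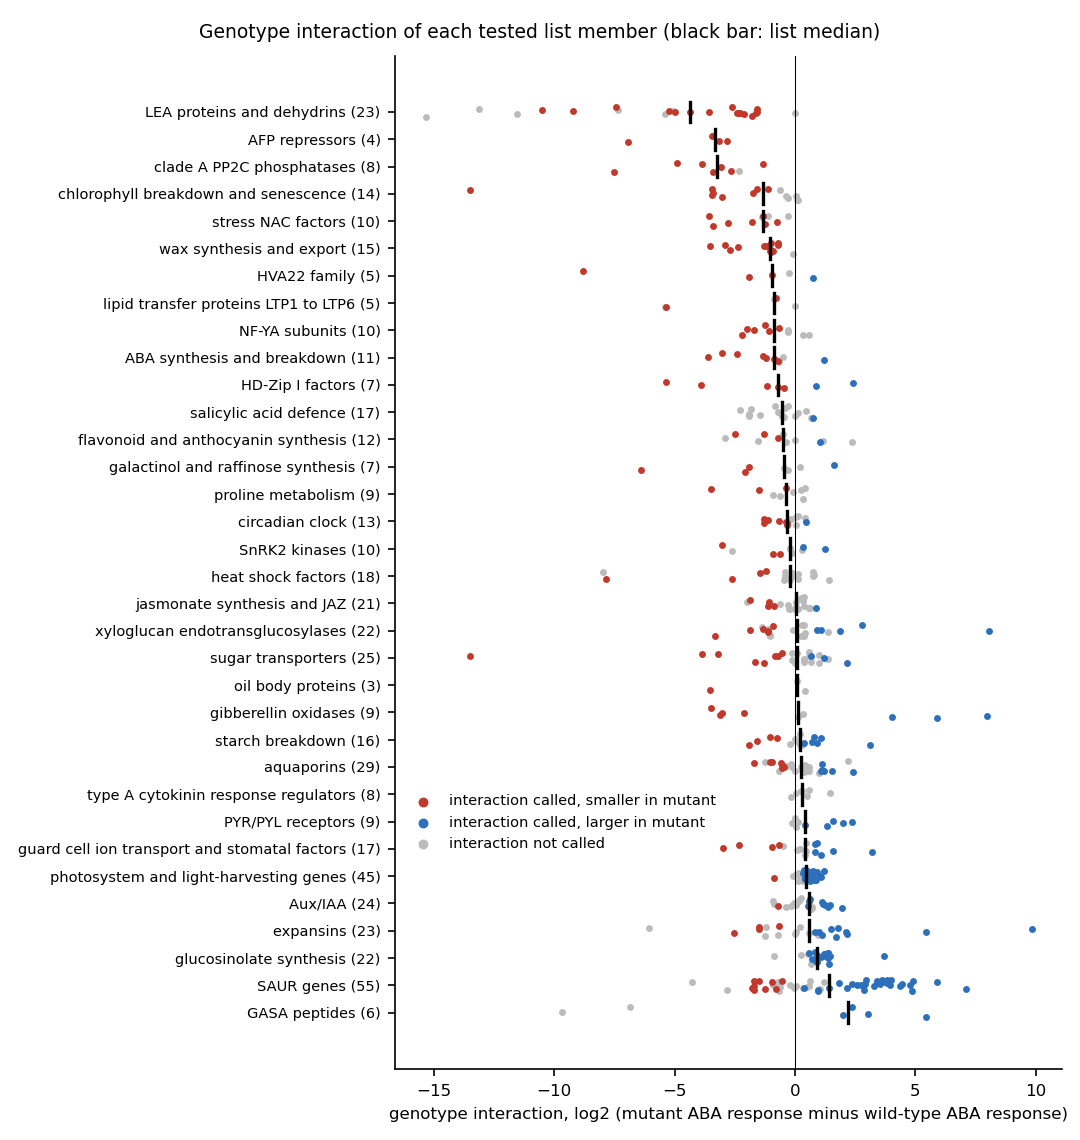
Genotype interaction (x axis, log2) of each tested member of the 34 functional gene lists, with the number tested in brackets, a black bar at the list median, red for called negative, blue for called positive and grey for not called. LEA and dehydrin genes, AFP genes and PP2C genes have medians of -4.38, -3.30 and -3.25, and GASA and SAUR genes lie at the positive end with 2.18 and 1.42.

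Guard cell ion transport and stomatal genes went both ways, with 4 negative and 6 positive interactions among 17. These shares of 23.5% and 35.3% stand against 15.1% and 20.1% of all genes. ALMT12, an anion channel that opens during stomatal closure, rose by 2.41 in wild type and fell by 0.61 in the mutant, an interaction of -3.01 ± 0.26 (SE; adjusted p = 1.3e-05, edgeR). AKS1, a bHLH factor for the potassium channel gene KAT1, had 5.03 and 5.59 cpm in wild-type control leaves, 177 and 168 cpm in wild-type ABA leaves, 10.6 and 7.23 cpm in mutant control leaves and 58.4 and 56.2 cpm in mutant ABA leaves, with an interaction of -2.34 ± 0.19 (SE; adjusted p = 7.8e-06, edgeR). GORK and SLAH3, which release potassium and anions, had -0.97 and -0.67. The anion channel SLAC1 rose in both genotypes, by 0.72 and 1.15, without a called interaction. MYB60, a guard cell factor that promotes stomatal opening, had 14.6 and 16.7 cpm in wild-type control leaves, 1.67 and 1.99 cpm in wild-type ABA leaves, 18.8 and 17.8 cpm in mutant control leaves and 19.0 and 20.4 cpm in mutant ABA leaves. It fell in wild-type leaves alone by the test, with a mutant change of 0.10, and its interaction was 3.17 ± 0.15 (SE; adjusted p = 4.1e-07, edgeR). FAMA, which sets guard cell identity, fell by 1.15 in wild type and rose by 0.44 in the mutant. HT1, a kinase of the CO2 response, fell by 1.14 in wild type and had an interaction of 1.08.

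AKS1 and MYB60 are shown side by side, at chr1:18945813-18946062 (minus strand) and chr1:2820479-2820728 (minus strand), since they are stomatal genes whose interactions have opposite signs.
AKS1: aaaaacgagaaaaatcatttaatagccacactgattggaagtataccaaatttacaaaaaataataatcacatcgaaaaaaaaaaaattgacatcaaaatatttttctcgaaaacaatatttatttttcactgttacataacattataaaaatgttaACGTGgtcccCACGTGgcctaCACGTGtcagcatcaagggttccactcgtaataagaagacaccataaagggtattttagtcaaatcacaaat
MYB60: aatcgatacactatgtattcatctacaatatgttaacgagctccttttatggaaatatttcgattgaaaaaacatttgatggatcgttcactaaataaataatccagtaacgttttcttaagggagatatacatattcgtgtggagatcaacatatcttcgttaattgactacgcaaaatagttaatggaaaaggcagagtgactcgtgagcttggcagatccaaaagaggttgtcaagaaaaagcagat
AKS1 holds 3 cores, 2 of them in CACGTG, and MYB60 holds none in this window.

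Lists of growth genes held the most positive medians, 2.18 for GASA and 1.42 for SAUR genes. SAUR genes, small auxin-responsive genes that drive cell expansion, had 31 positive and 9 negative interactions among 55, or 56.4% and 16.4%, against 20.1% and 15.1% of all genes, with a median response of -1.82 in wild type and -0.02 in the mutant. The negative count was 5 without wild-type control replicate 2 or mutant ABA replicate 1, and 20 were positive among genes with a mean of at least 50 counts. That filter leaves out weakly read members, so the 20 come from fewer than 55 genes. SAUR63 fell by 3.99 in wild type against a mutant change of -0.02, SAUR21 by 3.90 against 0.89, and SAUR16 by 4.15 against 0.29. SAUR51 and SAUR76, at the positive end, were read at no more than 1.14 and 0.336 cpm and had no count in wild-type ABA leaves. SAUR30, SAUR36 and SAUR59 were among the negative ones, where ABA raised wild-type levels by 2.29, 1.82 and 1.55. The GASA peptide genes, which respond to gibberellin, had 4 of 6 positive, against 20.1% of all genes. GASA4 had 50.6 and 74.2 cpm in wild-type control leaves, 3.77 and 2.75 cpm in wild-type ABA leaves, 36.9 and 40.0 cpm in mutant control leaves and 16.6 and 15.7 cpm in mutant ABA leaves, an interaction of 3.04 ± 0.28 (SE; adjusted p = 1.8e-05, edgeR). GASA6 and GASA1 had 5.43 and 2.36, and GASA1 rose in the mutant by 0.84. GASA2 and GASA3 had no count in 6 of the 8 leaf libraries and were read in wild-type ABA leaves alone, at 0.534 and 0.365 and 3.17 and 3.09 cpm, and DESeq2 called 2 of the 6 list members negative.

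Expansins loosen the cell wall, and 10 of 23 had a positive and 4 a negative interaction. As shares these were 43.5% and 17.4%, against 20.1% and 15.1% of all genes. EXPA8 had 25.9 and 37.1 cpm in wild-type control leaves, 0.0356 and 0 cpm in wild-type ABA leaves, 26.9 and 24.2 cpm in mutant control leaves and 16.7 and 9.76 cpm in mutant ABA leaves, and was called (edgeR, adjusted p = 4.4e-06). The wild-type ABA libraries held 1 and 0 counts, so the fall is at least 351-fold against 3 counts, and mutant leaves with ABA stood at least 147-fold above that level. EXPA14 was read under 1 cpm outside mutant ABA leaves, where it reached 1.91 and 2.00 cpm. EXPA6 fell from 69.1 and 87.9 to 21.1 and 12.6 cpm in wild type and was at 62.5 and 54.2 and 53.9 and 53.8 cpm in the mutant. EXPA1 fell by 2.88 in wild type and 2.88 in the mutant, an interaction of 0.00. EXLA2, EXLB1 and EXPA16 rose in wild type by 4.18, 2.19 and 6.09 and had interactions of -2.55, -1.49 and -1.48. The median of the list was 0.58, and ran from 0.05 to 0.84 over the alternatives. Xyloglucan endotransglucosylases, which cut and rejoin wall polymers, had 6 negative and 5 positive among 22, or 27.3% and 22.7%, against 15.1% and 20.1% of all genes. XTH31 went from 14 and 10.7 cpm to at most 1 read per library in wild-type ABA leaves and was read at 6.91 and 6.24 cpm in mutant leaves with ABA. XTH25 rose in both genotypes, by 4.39 and 2.52, and XTH29 was read at no more than 1.78 cpm in any leaf library. XTH6 fell by 1.23 in wild type and rose by 1.57 in the mutant. EXPA8 and XTH31 were the 2 genes at or under 3 counts in wild-type ABA leaves alone that averaged at least 5 cpm in every other group.

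The window before EXPA8, at chr2:16950706-16950955 (minus strand), is shown as the counterpart to RD29B and holds no core.
EXPA8: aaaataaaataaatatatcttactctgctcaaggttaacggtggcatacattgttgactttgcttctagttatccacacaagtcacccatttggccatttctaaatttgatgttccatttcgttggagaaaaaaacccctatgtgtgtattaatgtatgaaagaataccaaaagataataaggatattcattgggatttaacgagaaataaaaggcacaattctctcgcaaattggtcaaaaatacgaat

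Aux/IAA repressors of auxin signalling had 9 positive and 1 negative interaction among 24, or 37.5% and 4.17%, against 20.1% and 15.1% of all genes. IAA29 at 1.94 and IAA27 at 1.46 led the positive ones, and IAA28 was the negative one at -0.70. Without mutant control replicate 2, 3 were negative. IAA4 and IAA7 fell by 1.43 and 1.34 in wild type and were not called in the mutant, with interactions of 1.38 and 1.25. Gibberellin oxidases had 4 negative and 3 positive interactions among 9, and 2 negative ones without wild-type control replicate 2 or without either mutant control replicate. With all libraries the shares were 44.4% negative and 33.3% positive, against 15.1% and 20.1% of all genes. GA20OX1, which makes active gibberellin, was read at 3.5 and 4.26 cpm in wild-type control leaves, 0.320 and 0.195 cpm in wild-type ABA leaves, 3.59 and 4.32 cpm in mutant control leaves and 3.95 and 4.36 cpm in mutant ABA leaves, an interaction of 4.02 ± 0.39 (SE; adjusted p = 2.6e-05, edgeR). GA20OX3 and GA3OX2 were also called positive and GA20OX2 negative, but all 3 were read under 1 cpm in every leaf library. GA2OX8 was called negative at up to 1.22 cpm. GA2OX6, which inactivates gibberellin, rose by 1.55 in wild type and had an interaction of -2.13. Aquaporins had 7 negative and 6 positive interactions among 29, or 24.1% and 20.7%, against 15.1% and 20.1% of all genes. AT1G31880 and AT1G31885 both entered this list under the name NIP3;1, so it may hold a locus that is not an aquaporin. The negative count was 4 without wild-type ABA replicate 2 or wild-type control replicate 2. TIP2;1, a vacuolar membrane channel, had 283 and 258 cpm in wild-type control leaves, 98.2 and 93.0 cpm in wild-type ABA leaves, 149 and 119.7 cpm in mutant control leaves and 291 and 218 cpm in mutant ABA leaves. It fell in wild type and rose in the mutant, with an interaction of 2.42 ± 0.21 (SE; adjusted p = 1.5e-05, edgeR). PIP1;4 and PIP1;1, plasma membrane channels, rose by 1.99 and 1.69 in wild type and had interactions of -1.72 and -1.02. SIP1;2 had 1.54.

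**Figure D4:**
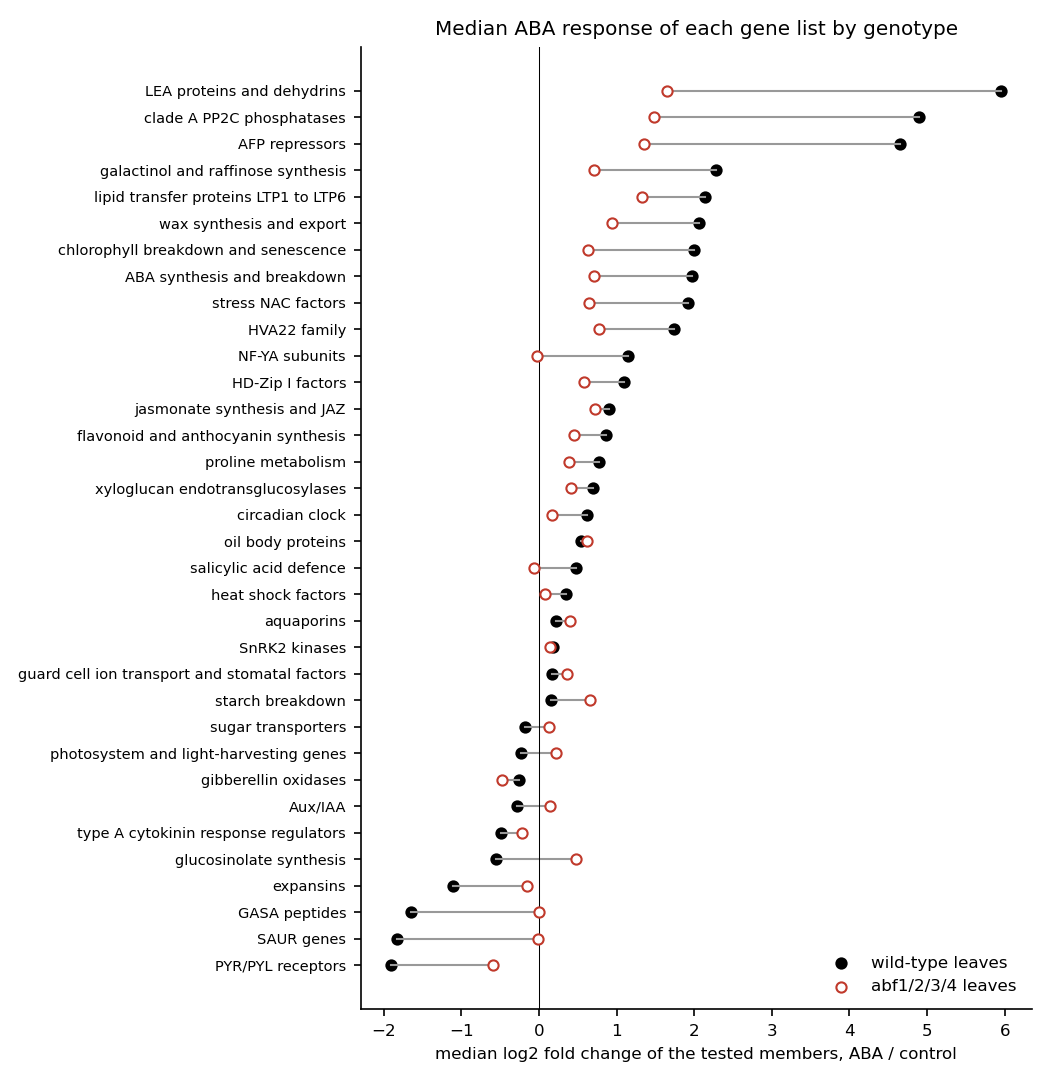
Median log2 fold change with ABA of the tested members of each gene list, with filled black points for wild-type leaves and open red points for abf1/2/3/4 leaves, joined by a line. The LEA and dehydrin list runs from 5.96 to 1.64, the SAUR list from -1.82 to -0.02, and the jasmonate list from 0.91 to 0.72.

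Photosystem and light-harvesting genes had small positive interactions, 27 of 45 called, against 20.1% of all genes, and 1 negative. The positive count depended on the processing. It was 19 with the leaf libraries alone, 23 under relative log expression scaling and 32 under upper quartile scaling. The median interaction of the list was 0.46, and ran from 0.36 to 0.59 over the alternatives. The median response of these genes was -0.23 in wild type and 0.22 in the mutant. Before ABA 31 of the 45 were lower in the mutant, against 14.4% of all genes. With ABA 17 were lower and 15 higher there, against 26.6% and 30.7% of all genes. The median difference was -0.02 with ABA, against -0.55 before ABA. LHCB1.2, a chlorophyll-binding protein, had 7258 and 8075 cpm in wild-type control leaves, 4228 and 3326 cpm in wild-type ABA leaves, 5340.3 and 5743 cpm in mutant control leaves and 6478 and 5149 cpm in mutant ABA leaves. The wild-type fall of 1.02 on the log2 scale had no called counterpart in the mutant, at 0.07. LHCA2*1, of photosystem I, had 1.22. LHCB7 was the negative member, at -0.89. Fewer cells of a type and less RNA per cell cannot be told apart in whole leaves, for these genes or any other here.

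Glucosinolate genes, which make the sulfur-rich defence compounds of this plant family, had 16 of 22 positive and none negative, though 1 was negative under DESeq2, relative log expression scaling or without mutant control replicate 1. Among all genes 20.1% were positive and 15.1% negative. The median response of the glucosinolate list was -0.56 in wild type and 0.48 in the mutant. MAM3, a chain elongation enzyme, had 39.5 and 24.9 cpm in wild-type control leaves, 1.18 and 1.17 cpm in wild-type ABA leaves, 62.6 and 17.2 cpm in mutant control leaves and 19.3 and 18.6 cpm in mutant ABA leaves, an interaction of 3.70 ± 0.75 (SE; adjusted p = 0.0029, edgeR). The mutant control libraries of MAM3 did not agree, and replicate 2 lay near the mutant ABA libraries. MYB28 and MYB29, activators of the aliphatic branch, had interactions of 0.89 and 1.36. CYP83A1 and BCAT4 of the same branch had 1.25 and 1.23, and CYP79B3 of the indolic branch 1.07. CYP79F2 had 1.44, a call lost under 5 of 16 alternative settings. MYB51 fell in both genotypes and was not called.

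Type A response regulators of cytokinin had 0 of 8 interactions called by edgeR and by DESeq2, with 1 at an unadjusted p under 0.05, against 35.1% of all genes called. Without wild-type control replicate 1, 3 of the 8 were positive, and upper quartile scaling gave 1. Of the 8 genes, 3 fell in mutant and 4 in wild-type leaves. Jasmonate synthesis and JAZ genes had 4 negative and 1 positive among 21, shares of 19.0% and 4.76% against 15.1% and 20.1% of all genes, while 14 rose in wild type and 15 in the mutant. LOX2, the first enzyme of jasmonate synthesis, rose by 2.36 and 2.05, an interaction of -0.31 that was not called. AOC4, a later enzyme of the route, was the positive member at 0.87. Among JAZ repressors, JAZ11, JAZ12, JAZ1 and JAZ5 were negative, from -1.89 to -0.89. Without mutant control replicate 1, 8 jasmonate genes in place of 1 were positive. Salicylic acid defence genes had 1 of 17 called, 5.88% against 35.1% of all genes, which was NPR4 at 0.76. Their mutant control libraries differed, with PR1 at 18.4 and 149 cpm, and leaving out replicate 1 there made 10 of the 17 negative while leaving out replicate 2 made 4 positive and none negative. Flavonoid genes had 3 negative and 1 positive among 12, shares of 25% and 8.33% against 15.1% and 20.1% of all genes. The negative count was 1 without wild-type control replicate 2 or without mutant control replicate 1, and 5 without mutant control replicate 2. F3H, an early enzyme of the pathway, had -1.30, which was -0.73 without mutant control replicate 1 and not called without wild-type control replicate 2, and 94% of its exon bases overlap another locus. TT7 had 1.05, a call lost under 7 of 16 alternative settings. PAP1, a MYB activator of anthocyanin, had -2.50, which was -0.63 and not called without mutant control replicate 1.

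Clock genes had 7 negative and 1 positive interaction among 13, or 53.8% and 7.69%, against 15.1% and 20.1% of all genes. Without mutant ABA replicate 1, 4 were negative. CCA1 and PRR9, which are expressed in the morning, had -1.27 and -1.29. CCA1 was read at 21.9 and 18.7 cpm and 57.3 and 50.4 cpm in wild-type control and ABA leaves and between 13.0 and 15.4 cpm in the mutant libraries. LHY, the close relative of CCA1, had 0.06 and was not called, and GI had -0.37. ELF3, of the evening complex, was the positive member at 0.44.

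The most negative interactions among called genes with reads in every group, a mean of at least 5 cpm in the highest group and no overlap between replicate-wise responses, included RD29B, HAI1, AFP1 and GOLS2 named above, and AT3G02480. That gene was read at 256 and 278 cpm in wild-type ABA leaves and at no more than 12 counts in any other leaf library, so its fold is not given, and its call was lost without mutant control replicate 1. AT2G41190 had 2.67 and 2.15 cpm in wild-type control leaves, 520.5 and 613 cpm in wild-type ABA leaves, 3.03 and 2.2 cpm in mutant control leaves and 5.14 and 5.16 cpm in mutant ABA leaves, with an interaction of -6.91 ± 0.27 (SE; adjusted p = 2.0e-07, edgeR). AT4G33905, AT2G25625, AT5G45630 and the MYB factor gene MYB74 had -7.75, -7.92, -7.42 and -6.65, and all 4 stayed at or under 2.05 cpm in every mutant library. At the positive end were GASA6, GER3, AT1G74675, SAUR21, SAUR16, ESE3, AT5G35777, P1R1, PRE1 and KDR, from 5.43 for GASA6 to 4.02 for KDR. GER3, a germin-like cell wall protein, had 176 and 239 cpm in wild-type control leaves, 3.06 and 3.02 cpm in wild-type ABA leaves, 220.4 and 174 cpm in mutant control leaves and 107 and 107 cpm in mutant ABA leaves, an interaction of 5.21 ± 0.23 (SE; adjusted p = 3.1e-07, edgeR). PRE1, a small bHLH protein that promotes growth, rose in the mutant and fell in wild type by 2.82, an interaction of 4.09.

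Upstream sequence was compared with the calls for the 20346 tested genes with a window, in which ACGTG was searched on both strands, a CACGTG palindrome counting as 1 core. A core stood within 250 bases before 33.7% of genes with a negative interaction, 22.4% of genes not called and 19.2% of genes with a positive one, against 23.5% of all tested genes and 22.9% of all protein-coding genes of the reference. For negative interactions of at least 1 in size the share was 39.9%, and for positive ones 19.1%. Genes that rose in wild-type leaves without a called interaction had a core in 31.0% of windows. For those that rose with a negative interaction the share was 34.8%. Genes were then sorted by the number of cores. Negative calls took 13.5% of 15560 genes without a core, 19.8% of 3663 with 1, 28.4% of 870 with 2, 36.0% of 200 with 3 and 50.9% of 53 with 4 or more. Positive calls took 21.9%, 17.9%, 15.7%, 7.50% and 7.55% of the same genes. Genes raised by ABA in wild-type leaves also grew in share, from 24.8% without a core to 67.9% with 4 or more. In mutant leaves that share went from 17.7% to 45.3%. The palindrome CACGTG alone stood before 12.5% of negative, 5.94% of positive and 7.48% of all tested genes. Windows printed above were examples, and not every gene with a large negative interaction held a core. GOLS2, at -6.41, had none in its window. A match is a run of letters, not a bound site, and its part in the responses was not tested.

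**Figure D5:**
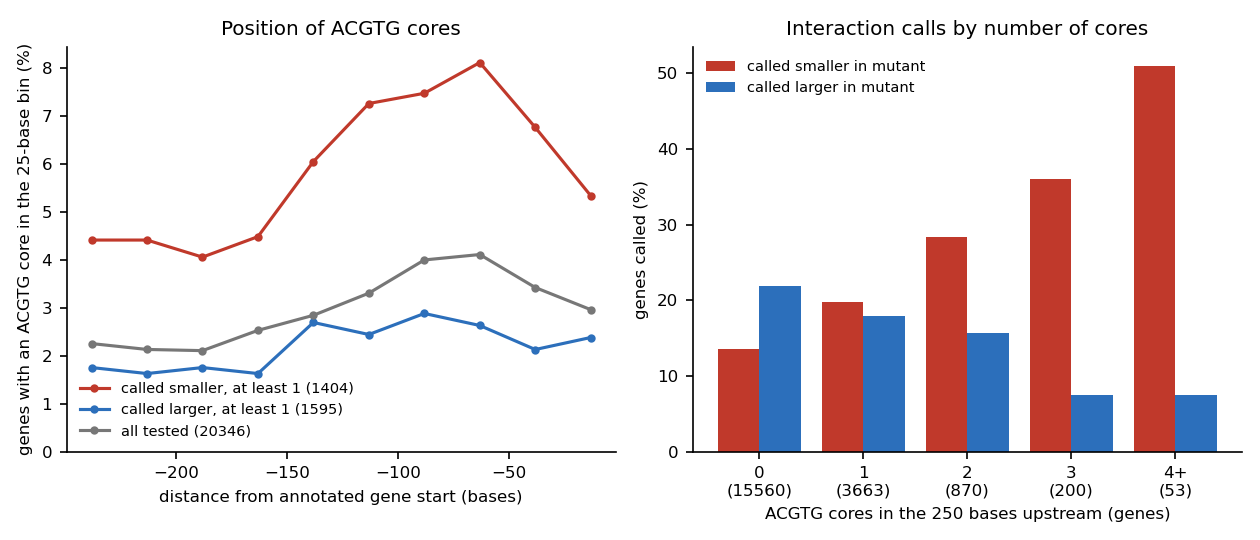
Left, share of genes with an ACGTG core (y axis, percent) in each 25-base bin by distance from the annotated gene start (x axis, bases), for 1404 genes with negative and 1595 with positive called interactions of at least 1 in size and for all 20346 tested genes. Right, share of genes with a negative (red) or positive (blue) call by number of cores in the 250 bases upstream, where negative calls rise from 13.5% to 50.9% and positive calls fall from 21.9% to 7.55%. The share of genes raised by ABA, not drawn, also rose with the number of cores in both genotypes.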

How the data were processed

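RNA of 12 Arabidopsis libraries was sequenced from poly(A) mRNA with the TruSeq V2 kit, per the labels' protocols. The authors deposited raw counts of reads per locus for 36796 loci, of which 8021 had no count in any library. Reads were trimmed with Trim Galore 0.6.5 and counted with featureCounts against TAIR10, per the submitters' processing notes, which also name DESeq2 1.26.0. The aligner, the annotation version and the strand setting are not given in the sources used here, and 12.3% of tested loci share over 25% of their exon bases with another locus of the reference.

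From the deposited counts, loci were kept by edgeR 4.0.16 (filterByExpr, minimum count 10, R 4.3.3), totals were scaled by trimmed mean of M-values (TMM), and 6 group means were fitted over all 12 libraries with 6 residual degrees of freedom. Quasi-likelihood tests were two-sided with Benjamini-Hochberg adjustment over the 22341 tested loci. The biological coefficient of variation was 8.98%. Alternatives were DESeq2 1.42.0, other scalings and filters, the leaf libraries alone, a replicate block and each leaf library left out.

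Replicate numbers were not used as pairs. Same-numbered libraries of different leaf groups had correlations of deviations between -0.15 and 0.12 over 18638 genes.

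The comparison, the gene lists and the tests were chosen with earlier results of these data known. The text names ABF1 to ABF4, marker genes of the pathway, up to 2 called genes per list and direction, the 10 largest called interactions per direction with reads in every group, and 3 per direction with a group at or under 3 counts. Other list members named, and the genes read in one group alone, were chosen after their values were seen. Folds written as at least are against a floor of 3 counts per library and cover counting error only. Sequences are RefSeq's for TAIR10.1, the reference used here, and all 22341 tested loci matched it by locus name. Python 3.11.15 was used for the lists and windows.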

Additional observations from a re-analysis of the deposited data

Results flagged for a closer look

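Genes called in opposite directions in the genotypes were looked at again, since each has a called test of the difference itself. ABA raised 117 genes in wild-type leaves that fell in mutant leaves, and lowered 426 genes in wild-type leaves that rose in mutant leaves.

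Genes with reads in every group were ranked by the smaller of their 2 opposite log2 changes, and the first 3 of each set are given. In the first set these were GPT2, AT4G39670 and FBS1. GPT2, a chloroplast glucose-phosphate transporter, was read at 4.86 and 2.2 cpm in wild-type control leaves and 13.2 and 19.2 cpm with ABA, and at 3.90 and 11.4 cpm and then 3.11 and 2.88 cpm in the mutant. The interaction of GPT2 was -3.56 (edgeR, adjusted p = 0.0014). The mutant control libraries of GPT2 differed from each other by more than one of them differed from the ABA libraries. AT4G39670 had an interaction of -3.55, with 9.55 and 24.8 cpm in its mutant control libraries. FBS1, an F-box protein induced by stress, had -2.98 (edgeR, adjusted p = 2.2e-05).

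In the second set they were 3 transcription factor genes. BZIP61 was read at 19.2 and 21.4 cpm in wild-type control leaves, 7.48 and 3.79 cpm in wild-type ABA leaves, 19.2 and 18.1 cpm in mutant control leaves and 65.1 and 46.0 cpm in mutant ABA leaves. Its interaction was 3.46 (edgeR, adjusted p = 3.0e-05). BZIP34, also a basic leucine zipper factor, had 3.67, and BHLH100, a factor of the iron deficiency response, had 3.46. All 4 mutant and wild-type control libraries of BZIP61 lay between those of the ABA groups.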

How the results depend on the processing

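The number of called interactions stayed within 1.5 times 7850 under DESeq2 (6888), relative log expression (7877), upper quartile (7964) and total-count scaling (7822), no low-count filter (7850), a mean of at least 50 counts (7668), the 8 leaf libraries alone (6709) and the replicate block (7837). Leaving out 1 leaf library gave 6157 to 8427 calls, 3464 to 4765 positive and 2650 to 3662 negative. An adjusted p under 0.01 gave 5085 calls, 2914 positive and 2171 negative, and an absolute interaction of at least 1 gave 3244, 1745 positive and 1499 negative. Positive calls were 48.0% of the total under DESeq2, 48.5% in the leaf libraries alone, 49.0% under relative log expression and 60.8% under upper quartile scaling, against 57.1%. The share of windows with CACGTG was 12.5% for negative and 5.94% for positive calls, and the ACGTG share for negative interactions of at least 1 was 39.9%.

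No called interaction of a named gene changed sign under any alternative. List medians carry no call, and several near 0 changed sign, among them galactinol and raffinose (-0.46 to 0.07), salicylic acid defence (-0.55 to 0.20), aquaporins (0.25 to -0.14), jasmonate (0.03 to -0.16), gibberellin oxidases (0.11 to -1.09), oil body proteins (0.08 to -3.38), xyloglucan endotransglucosylases (0.07 to -0.11) and sugar transporters (0.08 to -0.09). Counted over named genes, lists and alternatives, 51 values lost their call and 4 gained one, all 4 for LEA7, while 3505 stayed and 223 moved by more than the limits set for them. Without mutant control replicate 1, the calls of PAP1, LTP3, LEA4-5, WSD1, AT3G02480, AT3G15670, AT5G40790, HSFA6A, TT7 and GA20OX2 were lost, with interactions of -0.63 for PAP1 and -0.47 for LTP3. GA20OX2 lost its call under 11, TT7 under 7, SNRK2.10 under 6 and CYP79F2 under 5 of 16 alternatives. The labels state no pairing of the samples by replicate number. The cause of these shifts was not tested.

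Each group had 2 libraries, so the spread of a gene rests on the fit across genes. Genes at or under 3 counts in a group have no usable fold beyond a bound.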
